A study of Mus musculus with 6 samples.

Results

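Retinoic acid is the active form of vitamin A, and 9 genes that make, bind, degrade or sense it were followed in the inner enamel epithelium (IEE) of the developing mouse molar. The genes were Aldh1a1, Aldh1a2, Aldh1a3, Cyp26a1, Cyp26b1, Crabp1, Crabp2, Rarb and Rarg. The set was chosen with earlier results of these data known. Each gene was found by its symbol among the 18152 genes of the expression table, and all 9 passed the filter on low counts that kept 14131 genes. The IEE is the epithelial layer that lines the inside of the enamel organ and gives rise to the ameloblasts, the cells that form enamel. It was cut from the mandibular first molar at E18.5 by laser capture microdissection, a method that lifts a chosen area from a tissue section and can take cells at its border. Libraries were made from 3 samples of Kdf1 fl/fl mice and 3 samples of K14-Cre;Kdf1 fl/fl mice, all of the C57BL/6J background. Both groups carry the floxed Kdf1 allele, and the labels call the controls WT. In the other group, called cKO in the labels, Cre recombinase driven by the keratin 14 promoter deletes Kdf1 in epithelial cells throughout the animal and not in the tooth alone. Kdf1 encodes keratinocyte differentiation factor 1, which restrains proliferation of epidermal cells. The labels name the libraries biological replicates and do not say whether animals shared a litter.

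Cells obtain retinol from the blood. Retinol dehydrogenases oxidise it to retinaldehyde, and the retinaldehyde dehydrogenases of the Aldh1a family then form retinoic acid in a step that cannot be reversed. In the cytoplasm the acid is held by the binding proteins Crabp1 and Crabp2, and enzymes of the Cyp26 family break it down. In the nucleus it binds the retinoic acid receptors Rara, Rarb and Rarg, which sit on DNA as dimers with retinoid X receptors. Cells that make the acid and cells that destroy it often lie side by side in embryos, and both lack and excess of vitamin A are known to disturb tooth and enamel formation.

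Rarb and Cyp26a1 are textbook direct targets of the receptors, and the repeats of response-element type found near their starts are shown because both genes serve as readouts of the pathway. The element searched was a direct repeat of a half-site with 5 bases between the copies, on both strands. The half-site had 6 letters and could read AGGTCA in its usual form, or else AGTTCA as the first variant, GGGTCA as the next and GGTTCA as the last. RefSeq promoter windows of the GRCm38.p6 build ran from 250 bases before to 50 after a gene's start. They were matched by gene identifier for 7 of the 9 genes, all but Aldh1a3 and Crabp2. The repeat was present in 32 of 32851 windows of the same length, or 0.0974%, and those windows included 1 of Rarb and 1 of Cyp26a1. The single half-site, which is part of the repeat, is common, with a match in 43.7% of all windows. Each stretch of 30 bases is written 5′ to 3′ on the strand of its gene, with the half-sites in capitals.
Rarb: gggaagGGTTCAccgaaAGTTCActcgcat
Cyp26a1: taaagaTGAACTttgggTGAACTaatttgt
The Rarb stretch lies at chr14:16575506-16575535 on the minus strand, and its repeat spans 53 to 37 bases before the RefSeq start. In the GENCODE annotation of that build, the repeat is inside the 5′ UTR of 2 Rarb transcripts. The Cyp26a1 stretch lies at chr19:37697770-37697799 on the plus strand, 32 to 16 bases before the start used for the window, and its half-sites read on the opposite strand. A match describes the letters in the window and was not measured as receptor binding.

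Across the genotypes, the mean levels of Aldh1a2, Aldh1a3, Cyp26b1, Crabp1 and Rarb were more than 2-fold higher in K14-Cre;Kdf1 fl/fl than in Kdf1 fl/fl libraries, whereas Cyp26a1, Crabp2, Rarg and Aldh1a1 differed less. The largest fitted difference was that of Aldh1a2, at 16.7-fold, followed by Aldh1a3 at 6.06-fold and Crabp1 at 4.52-fold. Cyp26b1 followed at 2.95-fold and Rarb at 2.14-fold. The criterion of the study's methods was a log2 fold change of 1 or more in either direction, together with an adjusted p of at most 0.05. By the quasi-likelihood test of edgeR, adjusted by Benjamini-Hochberg over all genes, 0 of the 9 genes passed it, and 0.432% of the 14131 genes tested did so in either direction. At an unadjusted p of at most 0.05, the same test had 4 of the 9 genes higher in K14-Cre;Kdf1 fl/fl (Aldh1a2, Aldh1a3, Cyp26b1 and Rarb), beside 13.0% of all genes, and 0 lower, beside 11.6%. Libraries with the same replicate number were read as pairs because their deviations from the group means correlated across genes, at 0.133, 0.344 and 0.515. No label says what a number shares, and replicate 2 of Kdf1 fl/fl correlated at 0.144 with replicate 1 of K14-Cre;Kdf1 fl/fl. The pairing was thus read from the same values that the fit below uses, and was not tested apart from them. When edgeR was given this pairing as a replicate block, Aldh1a2, Aldh1a3, Cyp26b1, Crabp1 and Rarb rose past the criterion, which makes 5 of 9 beside 4.16% of all genes, and 0 fell, beside 1.92%. Without the pair of replicate 3, the blocked fit called 1 of these, Crabp1, beside 56 of all 14294 genes tested in that fit. DESeq2, without a block, called 4 of the 9 higher, all of the 5 except Crabp1, beside 5.05% of all genes, and 0 lower, beside 1.88%. The normalised read counts (CPM, read counts scaled to an equal library size) of the groups did not overlap for 3 genes that were higher in K14-Cre;Kdf1 fl/fl (Aldh1a2, Aldh1a3 and Cyp26b1), beside 14.5% of all genes, and for 0 genes that were lower, beside 16.2%. Over the 9 genes the median log2 fold change was 1.09, with 7 positive and 2 negative values, and over all genes tested it was -0.00426. Because the 9 genes were chosen with earlier results of these data known, the shares of all genes serve as a reference and not as a test.

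**Figure D1:**
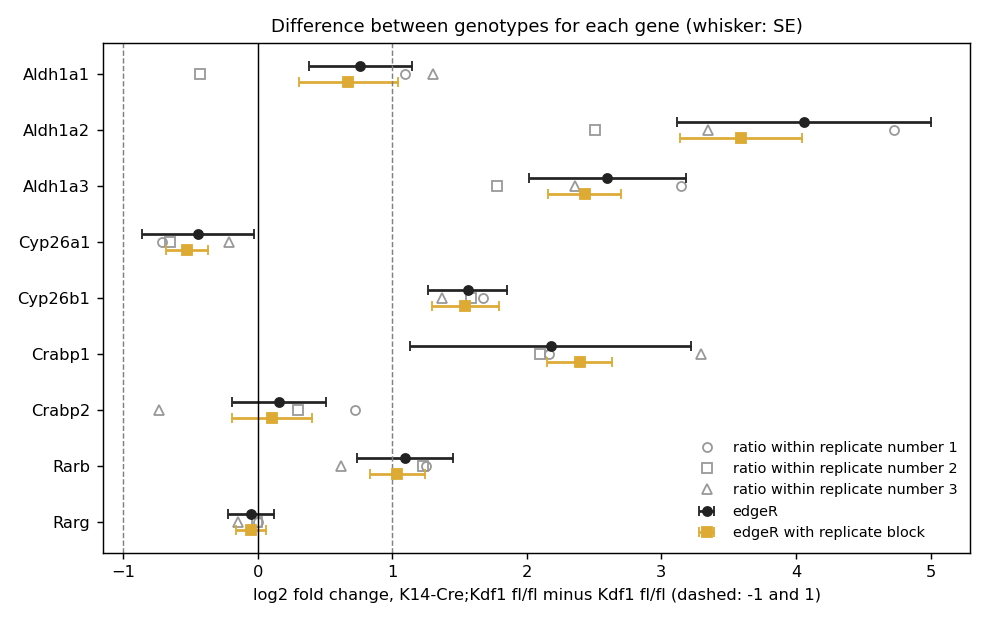
The log2 fold change of K14-Cre;Kdf1 fl/fl over Kdf1 fl/fl (x axis) is drawn for each gene, as fitted by edgeR without (black circles) and with (yellow squares) the replicate block with SE whiskers, beside the ratio within each replicate number (grey open symbols). For Aldh1a2, Aldh1a3, Cyp26b1, Crabp1 and Rarb all 3 ratios lie above 0, from 0.62 to 4.73, and for Cyp26a1 all 3 lie below it, from -0.71 to -0.21.

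The deletion itself was plain in every library. Kdf1 had 836, 731 and 835 reads in replicates 1, 2 and 3 of Kdf1 fl/fl and 0, 1 and 0 reads in those of K14-Cre;Kdf1 fl/fl, where a count of 0 allows up to 3 reads. Library totals were 14713918 to 16675133 estimated counts. All 14 markers of dental epithelium were detected in every library, with 1628 to 2944 TPM (the authors' length-scaled level) of Krt14 in Kdf1 fl/fl and 582 to 1205 TPM in K14-Cre;Kdf1 fl/fl. The summed TPM of that list was 13892 to 45862 in Kdf1 fl/fl and 5227 to 9005 in K14-Cre;Kdf1 fl/fl, and 1 of its 14 genes, Shh, had a higher mean CPM in the latter. Without overlap 9 of the 14 were lower, beside 16.2% of all genes, and 0 higher, beside 14.5%. The criterion was passed by 1 of the list in edgeR, by 6 with the block and by 4 in DESeq2. Over all 14131 genes tested, these fits called 61, 860 and 980. Amelx, the main enamel matrix gene, accounted for 4017 to 32209 TPM of the sum in Kdf1 fl/fl and 9.45 to 699 TPM in K14-Cre;Kdf1 fl/fl.

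Markers of cells outside the IEE were also measured, and the ranges of their follicle, papilla, endothelial and immune sums overlapped between the genotypes. The summed TPM of the 10 markers of dental follicle and jaw mesenchyme was 450.2, 1764 and 549 in the Kdf1 fl/fl replicates and 2742, 2603 and 1203 TPM for K14-Cre;Kdf1 fl/fl. In the latter 9 of 10 mean CPM values were higher, and 6 of 10 were higher without overlap, beside 14.5% of all genes. The criterion was passed by 0 of this list in edgeR, by 7 with the block and by 5 in DESeq2. Over all 14131 genes tested, these fits called 61, 860 and 980 in either direction. Lum and Dcn, matrix genes, gave 783 and 539 TPM of the 1764 TPM in replicate 2 of Kdf1 fl/fl. For dental papilla and odontoblasts 9 of 14 mean CPM values were higher, and the sum was 1753 to 8531 TPM in Kdf1 fl/fl and 4081 to 4621 TPM in K14-Cre;Kdf1 fl/fl. Of that list 2 genes passed in edgeR, the mesenchymal transcription factors Twist1 and Tfap2b, both higher in K14-Cre;Kdf1 fl/fl, and 7 passed in either direction with the block and 7 in DESeq2. The 8 endothelial markers were all higher in mean CPM, from 149 to 204 TPM in sum to 193 to 594 TPM, and so were the 9 immune markers, from 71.0 to 148 TPM to 127 to 446 TPM. The highest values of the follicle, endothelial and immune sums all came from replicate 1 of K14-Cre;Kdf1 fl/fl, the library that was also highest for Aldh1a2, Aldh1a3 and Cyp26b1. In K14-Cre;Kdf1 fl/fl against Kdf1 fl/fl, markers of enamel organ cells outside the IEE gave 486 to 525 TPM against 769 to 887 TPM. Most of that sum was Alpl, at 356 to 371 TPM against 596 to 748 TPM. Of the 8 genes 3 had a higher mean CPM. Without overlap 2 were higher and 2 lower, beside 14.5% and 16.2% of all genes. Neural and Schwann markers gave 104 to 173 TPM against 211 to 402 TPM. Of these 6 genes 2 had a higher mean CPM, and 2 were higher and 2 lower without overlap. Sums for bone, skeletal muscle and erythroid cells overlapped between the groups, and keratinised oral markers summed to 14.9 to 16.2 TPM against 37.0 to 140 TPM. Of those sums Krt6a gave 2.84 to 5.84 TPM against 23.2 to 93.5 TPM. Krt13 and Krt4 were at 45.95 and 22.19 TPM in replicate 3 of Kdf1 fl/fl and at most 0.59 and 0.18 TPM in any other library. No marker on any list was at 0 in all Kdf1 fl/fl libraries, and 1 skeletal muscle marker was at 0 in all K14-Cre;Kdf1 fl/fl libraries. The part of these cells in the results was not tested, and in bulk samples a different number of cells of a type and a different amount of RNA per cell cannot be told apart.

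Levels were compared between genes in TPM, which takes account of transcript length. In Kdf1 fl/fl the order of the mean TPM was Cyp26a1 at 744 ± 216 (SD, n = 3), Rarg at 109 ± 23.1, Crabp1 at 35.5 ± 37.9, Crabp2 at 35.2 ± 10.3, Aldh1a3 at 16.8 ± 7.21, Aldh1a1 at 8.13 ± 1.95, Rarb at 5.72 ± 1.80, Aldh1a2 at 2.43 ± 1.27 and Cyp26b1 at 0.820 ± 0.159. The neighbours Crabp1 and Crabp2, Aldh1a3 and Aldh1a1, and Aldh1a1 and Rarb overlapped in that order, and the other neighbours did not. An enzyme that destroys retinoic acid was thus the most abundant of the 9 transcripts, at rank 179 of 18152 genes, and the enzymes that make it were at ranks 7425 (Aldh1a3), 9625 (Aldh1a1) and 11832 (Aldh1a2). In K14-Cre;Kdf1 fl/fl the order was Cyp26a1 at 592 ± 315 (SD, n = 3), Crabp1 at 162 ± 146, Rarg at 111 ± 18.2, Aldh1a3 at 108 ± 89.4, Aldh1a2 at 43.8 ± 53.4, Crabp2 at 41.2 ± 17.7, Aldh1a1 at 14.2 ± 6.44, Rarb at 12.7 ± 5.31 and Cyp26b1 at 2.97 ± 0.737. The neighbours Cyp26a1 and Crabp1, Crabp2 and Aldh1a1, and Rarb and Cyp26b1 did not overlap in that order, and the other neighbours did. By mean TPM, Aldh1a3 stood at rank 1452, Crabp1 at rank 915 and Aldh1a2 at rank 3960.

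**Figure D2:**
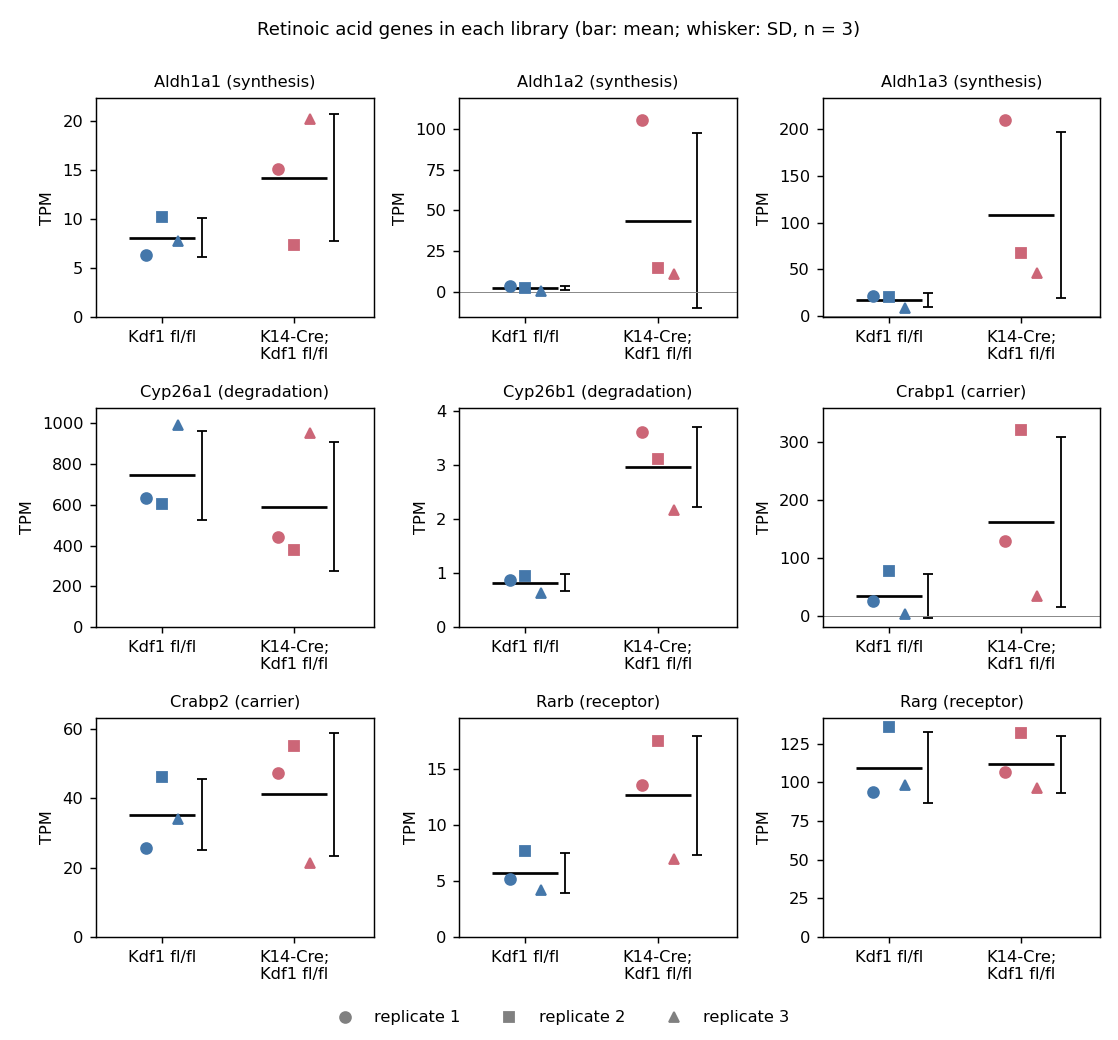
Each panel gives the TPM (y axis) of 1 gene in the 3 Kdf1 fl/fl (blue) and 3 K14-Cre;Kdf1 fl/fl (red) libraries, with the mean as a bar, the SD as a whisker and the replicate number as the symbol. Aldh1a2, Aldh1a3 and Cyp26b1 show no overlap between the groups, and replicate 1 of K14-Cre;Kdf1 fl/fl stands above the other libraries for Aldh1a2 at 105 TPM and Aldh1a3 at 210 TPM.

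Of the enzymes that make retinoic acid, Aldh1a2 (gene 19378) is the main one of embryonic mesenchyme in most tissues. In replicates 1, 2 and 3 its level was 3.58, 2.65 and 1.06 TPM in Kdf1 fl/fl and 105, 14.6 and 11.4 TPM in K14-Cre;Kdf1 fl/fl. The ranges were separate, but replicate 1 of K14-Cre;Kdf1 fl/fl was 9.28 times the lowest library of its group. On the CPM scale the mean was 2.79 ± 1.41 (SD, n = 3) in Kdf1 fl/fl and 46.6 ± 54.8 in K14-Cre;Kdf1 fl/fl, and the log2 fold change was 4.06 (SE 0.94), with an adjusted p of 0.0782 in edgeR's quasi-likelihood test. With the replicate block it was 3.59 (SE 0.45), with an adjusted p of 0.0137. Without replicate 1 of K14-Cre;Kdf1 fl/fl the log2 fold change was 2.44, in the same direction.

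Aldh1a3 (gene 56847) is the family member best known from epithelia and the nasal and optic placodes. Its level was 21.4, 20.5 and 8.47 TPM in the Kdf1 fl/fl replicates and 210, 67.9 and 45.7 TPM in the K14-Cre;Kdf1 fl/fl replicates. The groups did not overlap, and replicate 3 was the lowest library of each. Its log2 fold change was 2.6 (SE 0.58), from 30.3 ± 12 CPM to 183 ± 140 CPM, with an adjusted p of 0.0730 in edgeR, and with the block it was 2.43 (SE 0.27) at an adjusted p of 0.00964. Without replicate 1 of K14-Cre;Kdf1 fl/fl it was 1.78, and without replicate 3 of that group it was 2.97, with an adjusted p of 0.0491.

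Aldh1a1 (gene 11668), which oxidises retinaldehyde as well as other aldehydes, did not separate the groups. The levels were 6.38, 10.2 and 7.77 TPM in the Kdf1 fl/fl replicates and 15.1, 7.36 and 20.1 TPM in the K14-Cre;Kdf1 fl/fl replicates, so replicate 2 of the latter lay within the range of the former. The fitted log2 fold change was 0.76 (SE 0.38), with an adjusted p of 0.263 in edgeR and 0.274 with the block. Aldh1a7, a close copy of Aldh1a1 with which it can share reads, had 7.12, 11.6 and 12.6 TPM in Kdf1 fl/fl and 7.51, 5.57 and 20.5 TPM in K14-Cre;Kdf1 fl/fl. Its log2 fold change was 0.07, and the split of reads between the copies by the counting program is uncertain.

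Within the family, the part taken by Aldh1a2 was larger in all 3 libraries of K14-Cre;Kdf1 fl/fl than in any of Kdf1 fl/fl. The summed TPM of Aldh1a1, Aldh1a2 and Aldh1a3 was 31.4, 33.4 and 17.3 in Kdf1 fl/fl and 331, 89.8 and 77.2 in K14-Cre;Kdf1 fl/fl. The share from Aldh1a2 was 11.4%, 7.95% and 6.13% in Kdf1 fl/fl and 31.9%, 16.3% and 14.7% in K14-Cre;Kdf1 fl/fl, with no overlap. Aldh1a3 gave the largest share in every library, 49.0% to 68.2% in Kdf1 fl/fl and 59.2% to 75.5% in K14-Cre;Kdf1 fl/fl, and these ranges overlapped. The share from Aldh1a1 was 20.3% to 44.9% and 4.57% to 26.1%, respectively.

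**Figure D3:**
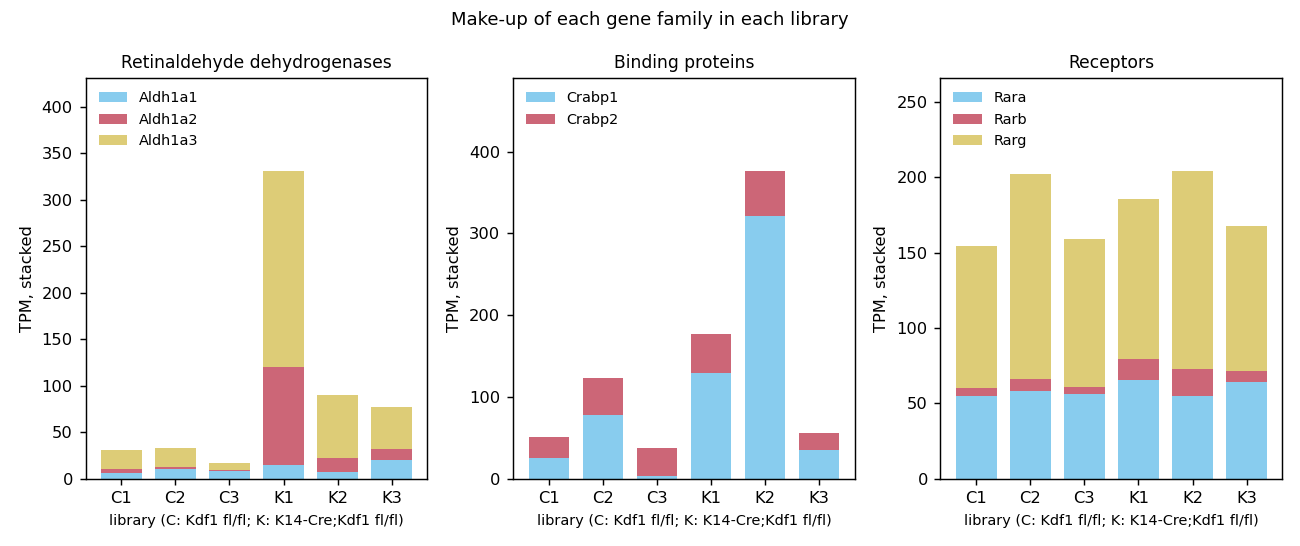
Stacked bars give the TPM (y axis) of the retinaldehyde dehydrogenases, the binding proteins and the receptors in each library, with C1 to C3 for Kdf1 fl/fl and K1 to K3 for K14-Cre;Kdf1 fl/fl. Summed dehydrogenase TPM is 17.3 to 33.4 in Kdf1 fl/fl and 77.2 to 331 in K14-Cre;Kdf1 fl/fl, whereas summed receptor TPM is 154 to 202 and 168 to 204.

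Of the enzymes that degrade retinoic acid, Cyp26a1 (gene 13082) was abundant in this tissue and Cyp26b1 (gene 232174) scarce. Cyp26a1 stood at 635, 604 and 993 TPM in the Kdf1 fl/fl replicates and 442, 379 and 954 TPM in the K14-Cre;Kdf1 fl/fl replicates. Replicate 3 was the highest library of both groups, and within each replicate number the K14-Cre;Kdf1 fl/fl library was the lower one, by log2 ratios of -0.71, -0.66 and -0.21. In log2 terms the difference was -0.44 (SE 0.41), from 636 ± 228 CPM to 468 ± 265 CPM, with an adjusted p of 0.543 in edgeR and 0.0837 with the block. The difference was smaller than the spread between libraries of 1 group, which reached 2.52-fold.

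Cyp26b1 is the family member known for keeping retinoic acid out of bone, skin and the fetal testis. It had 49, 50 and 36 reads in Kdf1 fl/fl and 155, 144 and 89 reads in K14-Cre;Kdf1 fl/fl, which corresponded to 0.880, 0.940 and 0.640 TPM and to 3.62, 3.12 and 2.17 TPM. The groups did not overlap, and the spread within a group was at most 1.67-fold. Its fitted log2 fold change was 1.56 (SE 0.29), from 2.79 ± 0.450 CPM to 8.25 ± 2.09 CPM, with an adjusted p of 0.0637 in edgeR and 0.0186 with the block, at a log2 fold change of 1.54. The ratios within replicate numbers were close to each other, at 1.67, 1.58 and 1.37. Even so, Cyp26b1 made up 0.0644% to 0.155% of the summed TPM of Cyp26a1 and Cyp26b1 in Kdf1 fl/fl and 0.227% to 0.817% in K14-Cre;Kdf1 fl/fl. The summed TPM of both genes was 605 to 994 and 382 to 956, respectively.

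Of the binding proteins, Crabp1 (gene 12903), which holds retinoic acid in the cytoplasm and is linked with its breakdown, had the widest range of the 9 genes within Kdf1 fl/fl. It was at 25.8, 77.3 and 3.41 TPM in the Kdf1 fl/fl replicates, a 22.7-fold range within that group. In K14-Cre;Kdf1 fl/fl it was at 129, 321 and 34.8 TPM. Replicate 2 was the highest and replicate 3 the lowest library of both groups, and replicate 3 of K14-Cre;Kdf1 fl/fl lay below replicate 2 of Kdf1 fl/fl. Its log2 fold change was 2.18 (SE 1.05) with an adjusted p of 0.247 in edgeR, whereas with the replicate block it was 2.39 (SE 0.24) with an adjusted p of 0.00695. The ratios within replicate numbers were 2.16, 2.10 and 3.29. Left-out libraries moved the unblocked log2 fold change from 1.18, without replicate 2 of K14-Cre;Kdf1 fl/fl, to 3.37, without replicate 2 of Kdf1 fl/fl.

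Crabp2 (gene 12904) delivers retinoic acid to its receptors. The levels were 25.7, 46.1 and 33.9 TPM in the Kdf1 fl/fl replicates and 47.3, 55.0 and 21.2 TPM in the K14-Cre;Kdf1 fl/fl replicates. The ranges overlapped, and the ratios within replicate numbers had both signs, at 0.72, 0.30 and -0.74. The fitted log2 fold change was 0.16 (SE 0.35), with an adjusted p of 0.814 in edgeR. Crabp1 gave 50.1%, 62.6% and 9.14% of the summed TPM of both genes in Kdf1 fl/fl and 73.2%, 85.4% and 62.1% in K14-Cre;Kdf1 fl/fl.

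Of the retinoic acid receptors, Rarb (gene 218772), whose upstream repeat is printed above, was the least abundant. Its level was 5.23, 7.71 and 4.21 TPM in the Kdf1 fl/fl replicates and 13.6, 17.5 and 7.0 TPM in the K14-Cre;Kdf1 fl/fl replicates. As with Crabp1, replicate 2 was the highest and replicate 3 the lowest library of both groups, and replicate 3 of K14-Cre;Kdf1 fl/fl lay just below replicate 2 of Kdf1 fl/fl. In log2 terms the difference was 1.09 (SE 0.35), from 9.0 ± 2.30 CPM to 19.2 ± 8.07 CPM, with an adjusted p of 0.129 in edgeR, 0.0294 with the block and 0.0332 in DESeq2. The fitted value sat near the threshold of 1, and it was 0.79 without replicate 2 of K14-Cre;Kdf1 fl/fl and 1.39 without replicate 3 of that group, where the adjusted p was 0.0491.

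Rarg (gene 19411), the main receptor of the epidermis, had the smallest fitted difference of the 9 genes. It was at 93.9, 136 and 98.4 TPM in the Kdf1 fl/fl replicates and 107, 132 and 96.2 TPM in the K14-Cre;Kdf1 fl/fl replicates. The fitted log2 fold change was -0.05 (SE 0.17), with an adjusted p of 0.890 in edgeR, and its sign turned under library-size scaling and in the TPM fits. Rara, the receptor that is present in most tissues, had 55.2, 58.4 and 56.3 TPM in Kdf1 fl/fl and 65.7, 55.0 and 64.3 TPM in K14-Cre;Kdf1 fl/fl, with a log2 fold change in counts of -0.01 (SE 0.10). The share of Rarb in the summed TPM of the 3 receptors was 3.39%, 3.82% and 2.65% in Kdf1 fl/fl and 7.31%, 8.57% and 4.18% in K14-Cre;Kdf1 fl/fl, with no overlap, and Rarg gave 57.3% to 67.3% in all libraries.

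The library with the highest level differed between the genes. Aldh1a2, Aldh1a3 and Cyp26b1 were highest in replicate 1 of K14-Cre;Kdf1 fl/fl, as were the follicle, endothelial and immune marker sums. A link with those sums was not tested. Crabp1, Crabp2 and Rarb were highest in replicate 2 of that group. Aldh1a1 was highest in replicate 3 of K14-Cre;Kdf1 fl/fl, and Cyp26a1 in replicate 3 of Kdf1 fl/fl, where the dental epithelium sum was also highest. Rarg was highest in replicate 2 of Kdf1 fl/fl, at 136 TPM, beside 132 TPM in replicate 2 of K14-Cre;Kdf1 fl/fl.

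**Figure D4:**
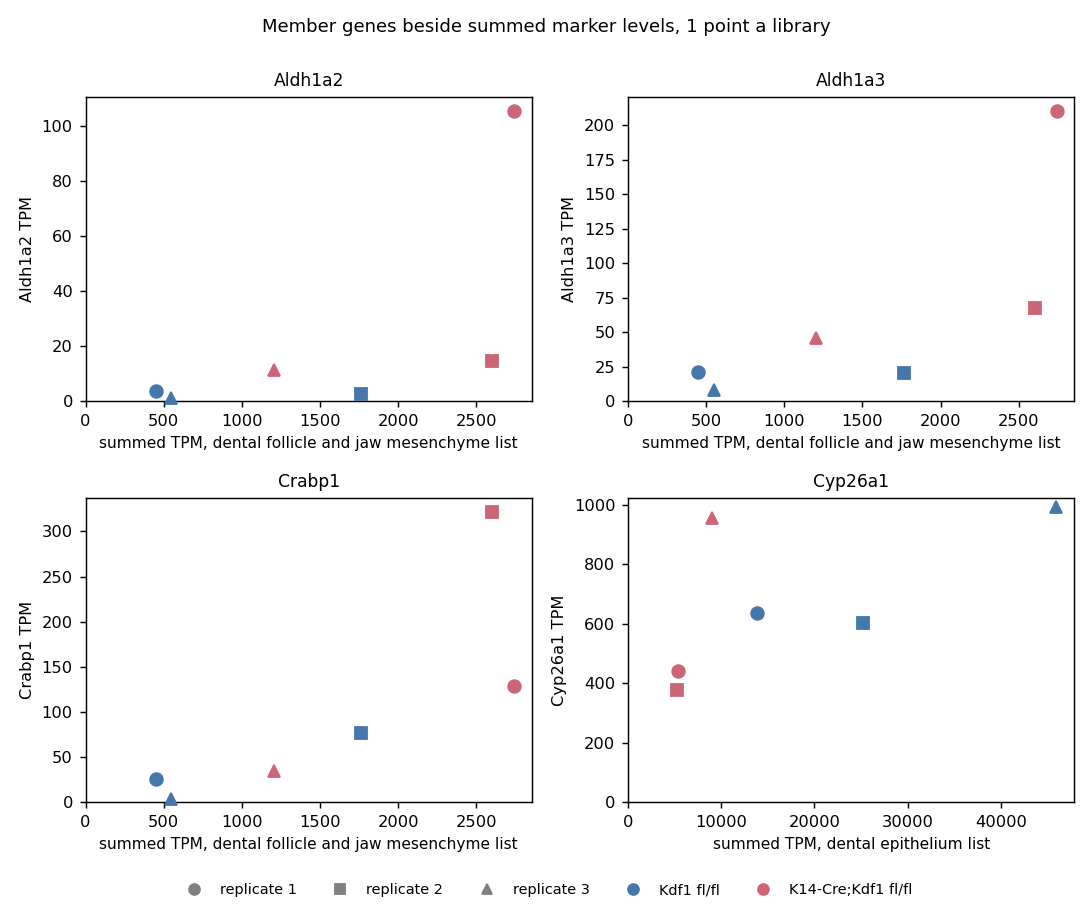
Each point is 1 library, with the summed TPM of a marker list on the x axis (dental follicle and jaw mesenchyme for Aldh1a2, Aldh1a3 and Crabp1, dental epithelium for Cyp26a1) and the TPM of the gene on the y axis. Replicate 1 of K14-Cre;Kdf1 fl/fl has the highest follicle sum, at 2742 TPM, together with 105 TPM of Aldh1a2 and 210 TPM of Aldh1a3. Replicate 2 of that group has a follicle sum of 2603 TPM with 14.6 TPM of Aldh1a2 and 67.9 TPM of Aldh1a3. The follicle sums of the groups overlap. Replicate 2 of Kdf1 fl/fl has 1764 TPM with 2.65 TPM of Aldh1a2, and replicate 3 of K14-Cre;Kdf1 fl/fl has 1203 TPM with 11.4 TPM. A link between the sums and the genes was not tested.

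The other genes of retinoid uptake, oxidation, carriage, breakdown, sensing and response were given by a list of 66 genes, of which 63 were in the table and 45 passed the filter on low counts. In edgeR 0 of the 45 passed the criterion, beside 0.432% of all genes. At an unadjusted p of at most 0.05 in that test, 10 were higher, beside 13.0% of all genes, and 2 lower, beside 11.6%. The lower ones were Fabp5, a lipid carrier that can also bind retinoic acid, at 457 to 689 TPM in Kdf1 fl/fl and 246 to 368 TPM in K14-Cre;Kdf1 fl/fl, and Sdr16c5, a retinol dehydrogenase, at 1.17 to 2.09 TPM and 0.33 to 0.70 TPM. With the replicate block 7 of 45 rose, beside 4.16% of all genes, and 0 fell, beside 1.92%. Without the pair of replicate 3, however, the blocked fit called 0 of 47, beside 56 of all 14294 genes tested in that fit. In DESeq2 6 of 45 were called higher, beside 5.05% of all genes, and 0 lower, beside 1.88%. The median log2 fold change over the list was 0.17, with 30 positive and 15 negative values, beside -0.00426 over all genes tested. This list too was chosen with earlier results of these data known.

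In uptake and storage, 2 of 4 tested genes passed with the block, both higher, beside 4.16% of all genes. One of them was Lpl, the lipoprotein lipase that frees lipids for uptake, at 1.32, 1.25 and 0.830 TPM in the Kdf1 fl/fl replicates and 25.3, 5.30 and 3.34 TPM in the K14-Cre;Kdf1 fl/fl replicates, with no overlap. Its log2 fold change was 3.20 (SE 0.74), with an adjusted p of 0.0777 in edgeR and 0.0249 with the block. Replicate 1 of K14-Cre;Kdf1 fl/fl was far above the others for Lpl, as it was for Aldh1a2.

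In the first oxidation step, from retinol to retinaldehyde, 1 of 10 tested genes passed with the block, beside 4.16% of all genes higher. It was Rdh10, the main retinol dehydrogenase of the embryo, at 9.07, 23.8 and 6.87 TPM in the Kdf1 fl/fl replicates and 77.0, 56.8 and 21.6 TPM in the K14-Cre;Kdf1 fl/fl replicates. The ranges overlapped by replicate 2 of Kdf1 fl/fl, and the log2 fold change of 1.91 (SE 0.55) had an adjusted p of 0.107 in edgeR and 0.0272 with the block. Dhrs3, the enzyme that turns retinaldehyde back to retinol, was at 36.4 to 44 TPM in Kdf1 fl/fl and 33.9 to 55.1 TPM in K14-Cre;Kdf1 fl/fl, with a log2 fold change of 0.03 (SE 0.20). Cyp1b1, which can oxidise retinol outside the Aldh1a route, rose with the block, from 5.74 to 9.52 TPM in Kdf1 fl/fl to 20.2 to 51.9 TPM in K14-Cre;Kdf1 fl/fl, a log2 fold change of 2.02 (SE 0.40) with an adjusted p of 0.0637 in edgeR and 0.0383 with the block.

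Among carriers, enzymes of breakdown and receptors, Cyp26c1, the remaining Cyp26 enzyme, was at 67.8, 51.9 and 27.1 TPM in the Kdf1 fl/fl replicates and 92.3, 51.8 and 29.1 TPM in the K14-Cre;Kdf1 fl/fl replicates. Its log2 fold change was 0.16 (SE 0.42), and of the 3 Cyp26 genes 1, Cyp26b1, passed the criterion with the block, beside 4.16% of all genes higher. Rxrg, a retinoid X receptor, was at 0.410, 1.48 and 0.140 TPM and at 1.98, 6.64 and 0.630 TPM, with the same order of replicates as Crabp1 and Rarb. Its log2 fold change was 2.09 (SE 1.04), with an adjusted p of 0.261 in edgeR and 0.0241 with the block. Rxra and Rxrb, the other receptors of that family, had log2 fold changes of -0.13 and 0.00. None of the 12 co-regulators tested passed the criterion in edgeR, with the block or in DESeq2, beside 61, 860 and 980 of all 14131 genes. At an unadjusted p of at most 0.05 in edgeR 1 of them was higher, beside 13.0% of all genes. It was the acetyltransferase gene Crebbp, with a log2 fold change of 0.37.

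Among 11 tested response genes, 2 passed with the block, beside 4.16% of all genes higher. Tgm2, tissue transglutaminase, was at 3.23, 3.39 and 1.32 TPM in the Kdf1 fl/fl replicates and 90.4, 8.21 and 14.3 TPM in the K14-Cre;Kdf1 fl/fl replicates, and its log2 fold change of 3.72 (SE 0.92) had an adjusted p of 0.0841 in edgeR and 0.0410 with the block. Rarres2, which encodes the attractant chemerin, was at 1.5, 2.29 and 1.19 TPM and at 23.6, 6.07 and 7.45 TPM, and its log2 fold change was 2.88 (SE 0.60), at adjusted p values of 0.0679 and 0.0248. Replicate 1 of K14-Cre;Kdf1 fl/fl was again the highest library for both. The list holds genes that several signals besides retinoic acid can raise, and the medians of its groups were 0.61 for response genes and -0.02 for co-regulators.

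**Figure D5:**
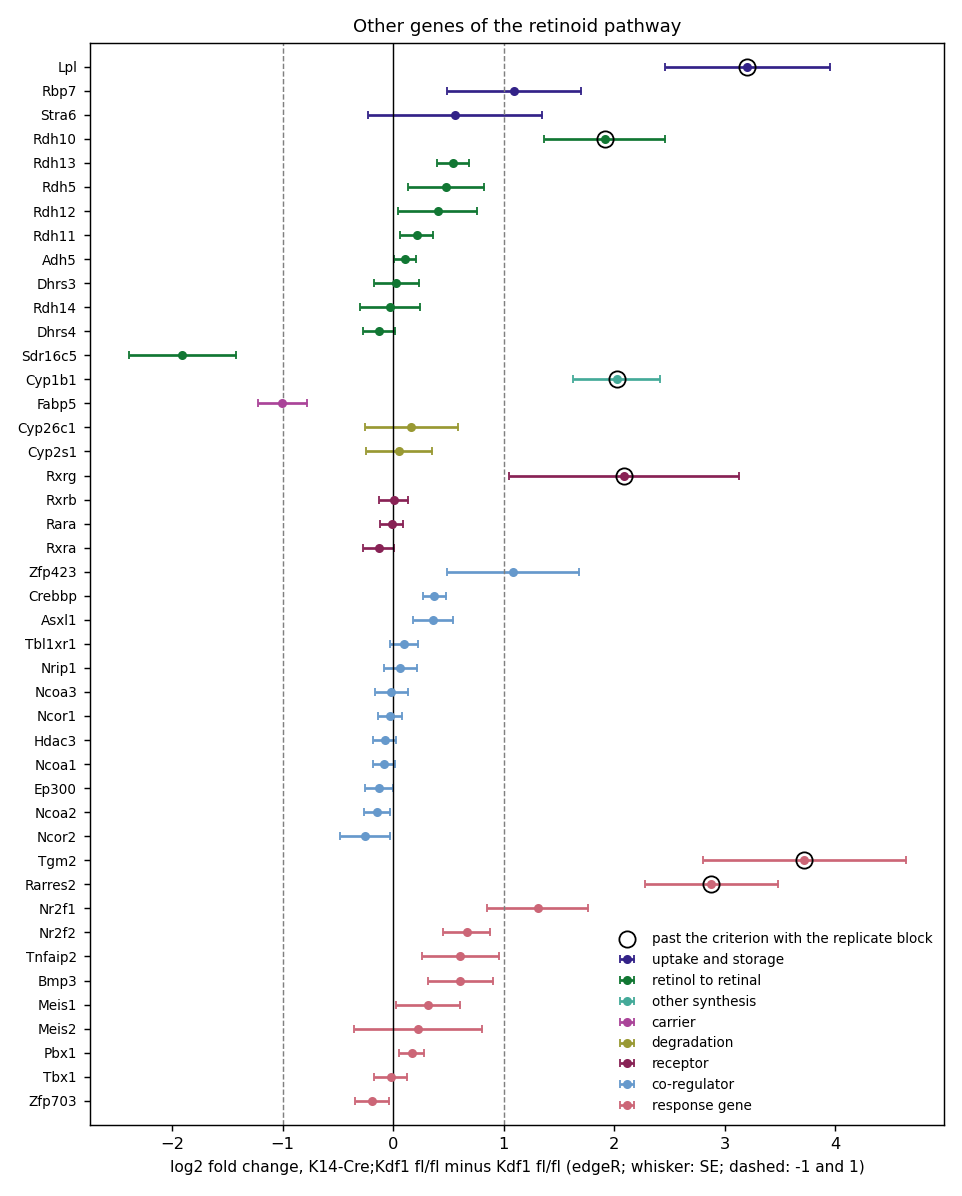
The log2 fold change of K14-Cre;Kdf1 fl/fl over Kdf1 fl/fl in edgeR (x axis, whisker SE) is drawn for 44 of the 45 tested genes of the list, coloured by role, with a ring around those past the criterion with the replicate block. The ringed genes lie between 1.91 (Rdh10) and 3.72 (Tgm2), and the co-regulators and Rara, Rxra and Rxrb cluster near 0 except for Zfp423.

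Among the genes whose log2 CPM most resembled that of Cyp26b1 over the 6 libraries were Lpar4 and Prss12, each with a Pearson r of 0.992, among 11597 genes with a mean of at least 5 CPM. For Cyp26a1 they were Coa6, Ryk and Vamp4, with r of 0.999, 0.993 and 0.993. Such values describe 6 points that share their library, depth and genotype, and r above 0.9 was reached by 577 genes for Cyp26b1 and by 438 genes for Cyp26a1. The 3 genes closest to Cyp26a1 differed little between the genotypes, with log2 fold changes of -0.27, -0.12 and -0.13.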

How the data were processed

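RNA-seq was made from the IEE of the mandibular first molar at E18.5, with 3 libraries per genotype. The authors deposited estimated counts, FPKM and TPM for each gene and library in 1 table. The deposited estimated counts are reads assigned to genes without normalisation, and 10.9% to 11.5% of values in a library were not whole, so they were rounded. The deposited TPM values were scaled by the authors for transcript length and to an equal total, and they were used for levels. FPKM values and the authors' group averages were not used. The submitters' processing notes name BWA 0.7.12, Picard 2.6.0 and StringTie. Their roles, the genome build and the strand setting are not given in the sources used here, so reads of overlapping or antisense genes cannot be told apart.

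In R 4.3.3, edgeR 4.0.16 was run with filterByExpr, TMM factors of 0.950 to 1.03 and robust quasi-likelihood F-tests, with Benjamini-Hochberg adjustment over all 14131 genes tested. SE values are the log2 fold change divided by the root of F, and CPM values use TMM-scaled library sizes. DESeq2 1.42.0 and limma 3.58.1 served as alternatives, together with other scalings, filters, thresholds, the replicate block and left-out libraries. The code was tested on simulated counts. Totals were 14713918 to 16675133 counts, and a count of 0 allows 3 counts, or 0.182 to 0.198 CPM, which covers counting error only. Within groups, the variance between libraries was 35.5 to 77.4 times that of sampling, and no library was a duplicate of another. P values set the genotype difference against the spread between these samples, which was estimated with information shared across genes.

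Pairing was checked from the deviations of same-numbered libraries from their group means, which correlated at 0.133, 0.344 and 0.515 across genes. All were above 0.1, so the numbers were read as pairs on this check alone; no label says what a number shares, and replicate 2 of Kdf1 fl/fl correlated at 0.144 with replicate 1 of K14-Cre;Kdf1 fl/fl.

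The 9 genes, the pathway list and the marker lists were chosen with earlier results of these data known. Named genes were the 9, those of the pathway list past the criterion in any of the 3 fits (at most 12), Rara, Dhrs3, Rdh10, Cyp26c1, Aldh1a7 and Kdf1, and the 3 genes closest in pattern to the gene of lowest p in each direction. Krt14, Krt6a, Krt13, Krt4, Shh, Amelx, Alpl, Lum, Dcn, Twist1, Tfap2b, Rxra, Rxrb, Fabp5, Sdr16c5, Crebbp and Zfp423 were named after their values were seen. Promoter windows are RefSeq sequences, and the annotation around the repeats is GENCODE. A gene of the pathway list that this rule names is not reported here.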

Additional observations from a re-analysis of the deposited data

How the results depend on the processing

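Calls depended on the test. Of the 9 genes, 0 passed the criterion in edgeR, and 0 did so in limma-voom, under 3 other scalings, under 2 other filters, in 2 TPM fits and without the robust option. DESeq2 called 4, and so did an unadjusted p with the fold change minimum. With the replicate block, which takes the replicate numbers as pairs, 5 passed, and with a pair left out as well, 4 passed without pair 1, 5 without pair 2 (with Aldh1a1 in place of Rarb) and 1 (Crabp1) without pair 3, alternatives added after the data had been seen. Leaving out single libraries gave 0 to 3, the 3 being Aldh1a3, Cyp26b1 and Rarb without replicate 3 of K14-Cre;Kdf1 fl/fl. For the pathway list, from 0 in edgeR, DESeq2 gave 6, the block 7, the unadjusted p with fold 9, the block without pair 1, 2 or 3 gave 7, 5 (4 higher and 1 lower) or 0, and single libraries left out gave 0 to 3. For all genes, from 61 in edgeR, DESeq2 gave 980, the block 860, the block without pair 1, 2 or 3 gave 885, 849 or 56, limma-voom 6, DESeq2 size factors 7, library size alone 9, no filter 103, at least 10 counts in every library 6, log2(TPM + 1) 16, the unadjusted p with fold 1372, and single libraries left out 1 to 465, with the high end without replicate 3 of K14-Cre;Kdf1 fl/fl. The cause of these shifts was not tested.

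Aldh1a1, Aldh1a2, Aldh1a3, Cyp26a1, Cyp26b1, Crabp1 and Rarb kept their direction in all 20 alternatives. Crabp2 did not, with log2 fold changes of -0.20 and -0.000343 with the block without pair 1 or 2, and -0.10 to 0.46 with single libraries left out. Rarg turned to 0.00557 with library size alone, 0.0344 with log2(TPM + 1) and 0.0347 with log2(TPM + 0.1), and ranged from -0.179 to 0.0760 with single libraries left out. Rarg was near 0 throughout, whereas Crabp2 reached 0.50 with the block without pair 3. The scalings moved the median of all genes to at most 0.05. With 3 libraries per group, adjusted p values of Aldh1a2, Aldh1a3 and Cyp26b1 were 0.0637 to 0.0782 in edgeR and 0.0476 to 0.297 with single libraries left out.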
